A study of Mus with 18 samples.

Results

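Lipopolysaccharide (LPS), a wall component of Gram-negative bacteria, is sensed by a small set of proteins, and the mRNA levels of 10 genes for these proteins were followed in libraries labelled C2C12 and in mouse gastrocnemius muscle. The genes were Tlr4, Ly96, Cd14, Lbp, Tlr2, Myd88, Ticam1, Irak4, Irak1 and Irak3. They were chosen by gene symbol, and all 10 were found among the 21401 genes listed in each experiment. In the established pathway, LPS-binding protein (Lbp) hands LPS to Cd14, which passes it to the receptor Tlr4 and its co-receptor, the product of Ly96. Tlr4 signals from the cell surface through the adaptor Myd88 and the kinases Irak4 and Irak1 to NF-κB, and from endosomes through the adaptor Ticam1 (Trif) to interferon genes. Tlr2 detects bacterial lipoproteins and uses Myd88 as well, whereas Irak3 (IRAK-M) holds Myd88 signalling back. Macrophages and other myeloid cells are known for high levels of this machinery.

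RNA-seq was performed on 18 libraries, 3 for each of 3 treatments in each experiment. C2C12 is a line of wild-type mouse myoblasts, the precursor cells of muscle fibres. The cells were labelled as control (saline vehicle), as LPS (1 μg/mL), or as LPS-MIC-1, which received 1 μg/mL LPS together with 10 μM MIC-1 over 24 h. MIC-1 is moringa isothiocyanate-1, a compound of Moringa oleifera seeds. The paper names a lower MIC-1 dose than the labels for the sequenced cells, and its methods give ethanol as the vehicle and the same duration for all cells. Wild-type C57BL/6 male mice received saline vehicle, LPS at 10 mg/kg into the peritoneum, or the same LPS dose after 3 days of daily gavage with MIC-1 at 80 mg/kg in 10% DMSO, and the calf muscle was taken 16 h after LPS. No age of the mice is given in the sources used here, no group received MIC-1 without LPS, and the paper gives the control mice oral DMSO where the labels say saline, with no vehicle named for the LPS mice. The cells are labelled as 1 line, but the markers given below went against that name in control and LPS. The labels do not state whether the replicates were separate cultures, so p-values there measure the spread between these libraries.

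The values were FPKM, read counts scaled for transcript length and sequencing depth. Between 13170 and 14978 genes were above 0 per library. Depth per library was not given, but the authors' normalized counts, averaged over the libraries of a comparison, summed to between 13873466 and 18734426. At that depth 1 FPKM stood for 5.58 to 7.51 normalized reads of Ly96, a short transcript, and for 108 to 143 of Tlr4. Ly96 in muscle thus averaged 7.66 and 9.00 normalized reads in its comparisons with LPS-MIC-1, whereas Irak1 averaged 863 and 851, so low values of Ly96 carry a larger counting error.

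The labelled cell types were checked with lists of marker genes. In the libraries labelled C2C12 control, 14 macrophage genes summed to between 8182 and 8287 FPKM and 9 myoblast genes to between 0.136 and 0.408 FPKM. In those labelled C2C12 LPS the sums were 3813 to 3904 and 0.301 to 2.43 FPKM. The order was turned around in the libraries labelled C2C12 LPS-MIC-1, where the myoblast list summed to between 843 and 1100.4 FPKM and the macrophage list to 105.7, 4.48 and 2.14 FPKM in replicates 1, 2 and 3. The myoblast factors Myf5 and Msc were at 0 in all control and LPS libraries and at 5.98 ± 1.49 and 2.37 ± 1.53 FPKM (SD, n = 3) in LPS-MIC-1, while Pax7 was at or near 0 in all 9. The macrophage genes C1qa and C1qc were at 0 in all LPS-MIC-1 libraries and above 0 in the others, and Aif1 was at 0 in LPS-MIC-1 and in 3 of the 6 others. The sum of 4 Y-linked genes was 52.1 to 65.9 FPKM in control and LPS and 0.0488 to 1.62 FPKM in LPS-MIC-1, while Xist was at 0.00823 to 0.118 and 14.8 to 41.7 FPKM, respectively. The markers of the 6 libraries labelled control and LPS therefore went against the cell line named for them. Every comparison with LPS-MIC-1 in the cells sets libraries with macrophage markers against libraries with myoblast markers, cell type and treatment cannot be told apart there, and each direction below is one between libraries with those labels. In muscle the 12 fibre genes summed to 248720 to 255047 FPKM in control, 236742 to 242622 with LPS and 186536 to 200346 with LPS-MIC-1. The 8 endothelial genes were at 86.7 to 92.0, 55.3 to 57.5 and 83.7 to 93.0 FPKM in the same order, and the 5 adipocyte genes at 1.55 to 4.60, 2.62 to 5.69 and 6.67 to 11.3 FPKM. Its macrophage list was at 25.7 to 30.0 FPKM in control, 38.7 to 40.2 FPKM in LPS and 29.5, 29.6 and 159.9 FPKM in LPS-MIC-1 replicates 1, 2 and 3. As all samples were bulk RNA, fewer cells of a type and less RNA per cell cannot be told apart.

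**Figure D1:**
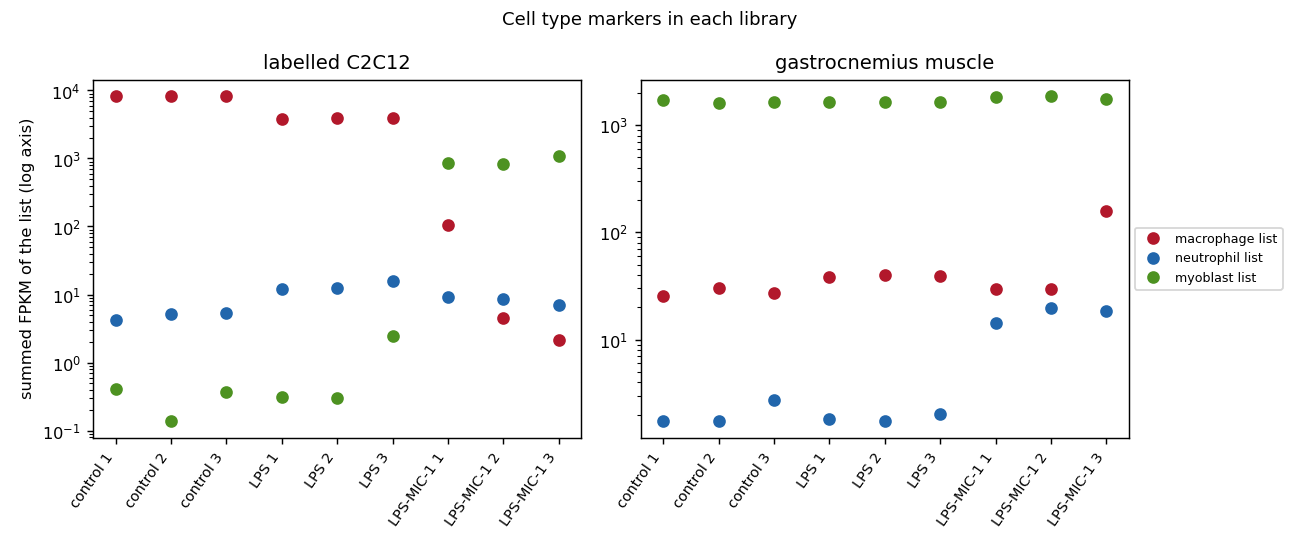
Summed FPKM (log axis) of the macrophage, neutrophil and myoblast marker lists in each of the 18 libraries, 1 point per list and library, for the libraries labelled C2C12 (left) and muscle (right). The macrophage and myoblast points change places between LPS and LPS-MIC-1 on the left, and muscle LPS-MIC-1 replicate 3 stands at 159.9 FPKM for the macrophage list.

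In the libraries labelled C2C12, the LPS-sensing genes moved in opposite directions between control and LPS: the accessory proteins Cd14 and Ly96, the adaptor Ticam1 and the inhibitor Irak3 were higher in LPS, whereas Tlr2 was lower and Tlr4, Myd88, Irak4 and Irak1 had lower values that stayed within a doubling. Genes were tested with limma on log2(FPKM + 0.1), a scale that understates the change of low genes, and called where the adjusted p was under 0.001 and the log2 fold change exceeded 1 in size. Of the 9 members tested, 4 were called higher (13.4% of all tested genes were) and 1 lower (12.7% of all). The groups did not overlap for 4 members higher in LPS and 5 lower, against 41.0% and 43.0% of all genes tested, so that separation by itself was common to these libraries. The comparison of 3 with 3 libraries has 20 arrangements, and its 2-sided exact permutation p cannot go below 0.1, the value for every member whose groups did not overlap.

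Tlr4, the receptor itself, had 13.4, 13.2 and 14.0 FPKM in control replicates 1 to 3, 9.42, 9.33 and 9.20 with LPS, and 7.09, 6.08 and 7.28 with LPS-MIC-1. The groups formed 3 separate steps, highest in control. Its log2 fold change was -0.53 (standard error, SE, 0.0418, limma adjusted p = 1.73e-05) in LPS against control, -0.45 (0.0974, 0.00575) in LPS-MIC-1 against LPS and -0.98 (0.0945, 0.00016) against control. None of these was called. Without LPS-MIC-1 replicate 1 or 3, however, the change against control passed both limits at -1.01 and -1.03 (adjusted p = 0.000599 and 0.000339).

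Ly96, whose product binds LPS within the receptor, had 13.3, 18.4 and 15.2 FPKM in control, 30.1, 35.8 and 33.2 with LPS and 10.7, 15.6 and 17.8 with LPS-MIC-1. LPS stood apart from both other groups, which overlapped. The rise in LPS was 2.11-fold, a log2 fold change of 1.08 (SE 0.122, adjusted p = 0.000125). It lost its call when all 9 libraries shared a fit (adjusted p = 0.00127) and without control replicate 1 (0.97 on the log2 scale). In LPS-MIC-1 against LPS the log2 fold change of -1.19 missed the limit (SE 0.196, adjusted p = 0.00169), and against control it was -0.11 (95% confidence interval -0.65 to 0.43, adjusted p = 0.663).

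Cd14, the surface protein that loads LPS onto the receptor, was the most abundant member in all 3 groups. It had 705, 709 and 700.0 FPKM in control, 2029, 2078 and 2013 with LPS and 136, 73.8 and 88.3 with LPS-MIC-1. Cd14 exceeded 99.4%, 99.8% and 95.1% of all genes in the same order of groups. It rose 2.90-fold in LPS, by 1.53 on the log2 scale (SE 0.0218, adjusted p = 7.19e-09). In LPS-MIC-1 it was 20.5-fold lower than in LPS, a log2 fold change of -4.41 (SE 0.222, adjusted p = 1e-05), and 7.09-fold lower than in control (-2.87, adjusted p = 5.89e-05). LPS-MIC-1 replicate 1, which carried 31.9 times the macrophage list of the other 2 replicates, also carried 1.68 times their Cd14 level. Without it the change against LPS was -4.66 (adjusted p = 5.92e-06).

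Lbp, a secreted protein made mainly by liver, was near the limit of detection. It was listed at 0 in all 3 control libraries and in LPS replicate 3, and had 0.0252 and 0.0760 FPKM in LPS replicates 1 and 2. In LPS-MIC-1 it had 1.16, 0.313 and 0.321 FPKM, and thus lay above every LPS library. It failed the limit of a mean FPKM over 1 in each comparison and was not tested.

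Tlr2, the lipoprotein receptor, showed the largest fold decline from control to LPS-MIC-1 among the members above 0 in all 9 libraries. It had 87.5, 84.2 and 85.0 FPKM in control, 35.8, 35.8 and 34.2 with LPS and 2.74, 1.85 and 2.24 with LPS-MIC-1. The drop in LPS was 2.43-fold, with a log2 fold change of -1.28 (SE 0.0314, adjusted p = 5.61e-08). LPS-MIC-1 was a further 15.5-fold below LPS (-3.91, SE 0.148, adjusted p = 3.87e-06) and 37.6-fold below control (-5.19, adjusted p = 9.14e-07). Per unit of Tlr4, Tlr2 thus went from 6.33 ± 0.234 (SD, n = 3) in control to 3.78 ± 0.0648 with LPS and 0.333 ± 0.0468 with LPS-MIC-1.

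The adaptors moved apart in LPS. Myd88, the adaptor of nearly all Toll-like receptors, had 61.5, 60.1 and 60.0 FPKM in control, 41.2, 39.6 and 40.7 with LPS and 18.0, 16.8 and 17.4 with LPS-MIC-1. Ticam1, the adaptor of the interferon branch, had 14.9, 14.4 and 14.6 FPKM in control, 81.2, 78.3 and 74.7 with LPS and 9.10, 7.78 and 7.31 with LPS-MIC-1. Ticam1 was therefore the lower of these adaptors in control and the higher in LPS. It rose 5.33-fold in LPS, by 2.40 on the log2 scale (SE 0.0387, adjusted p = 1.06e-08), while Myd88 changed by -0.58 (0.0279, 1.33e-06) and was not called. In LPS-MIC-1 against LPS both fell on the log2 scale, Ticam1 by 3.27 with an adjusted p of 2.12e-06 and Myd88 by 1.21 with 6.8e-06. Against control Myd88 was called at -1.79 (adjusted p = 1.1e-06), but Ticam1 at -0.86 was under the fold limit (adjusted p = 0.000357).

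Irak4, the kinase that starts the Myd88 cascade, had 11.9, 12.4 and 13.2 FPKM in control, 6.41, 6.72 and 7.46 with LPS and 2.48, 2.68 and 3.17 with LPS-MIC-1. Irak1, the kinase it activates, had 75.1, 67.4 and 69.5 FPKM in control, 38.2, 37.0 and 35.5 with LPS and 27.2, 30.3 and 26.1 with LPS-MIC-1. Both kinases stepped down from group to group without overlap. In LPS against control, neither reached the fold limit, at -0.86 for Irak4 (SE 0.0709, adjusted p = 2.36e-05) and -0.93 for Irak1 (0.0486, 1.95e-06), although quantile normalization took Irak1 to -1.05. In LPS-MIC-1, Irak4 was called lower than with LPS alone (-1.28, SE 0.134, adjusted p = 0.000217), a call that was lost without any 1 of the LPS libraries (adjusted p = 0.00136 to 0.00172), without LPS-MIC-1 replicate 2 (0.00131) and under quantile normalization (-1.20, adjusted p = 0.00239). Irak1 changed by -0.41 there (adjusted p = 0.00267). Against control both were called, Irak4 at -2.14 (adjusted p = 1.5e-05) and Irak1 at -1.34 (adjusted p = 1.74e-05).

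Irak3, the inhibitory member of the kinase family, is known mainly from monocytes and macrophages. It had 6.17, 6.49 and 6.93 FPKM in control and 20.1, 21.2 and 20.6 in LPS, a rise of 3.16-fold (1.65 on the log2 scale, SE 0.054, adjusted p = 2.04e-07). It was listed at 0 in all 3 LPS-MIC-1 libraries, replicate 1 with its trace of macrophage genes included. The test called it lower there against both other groups, through which alone it passed the limit on FPKM, and no fold is given against a group listed at 0.

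**Figure D2:**
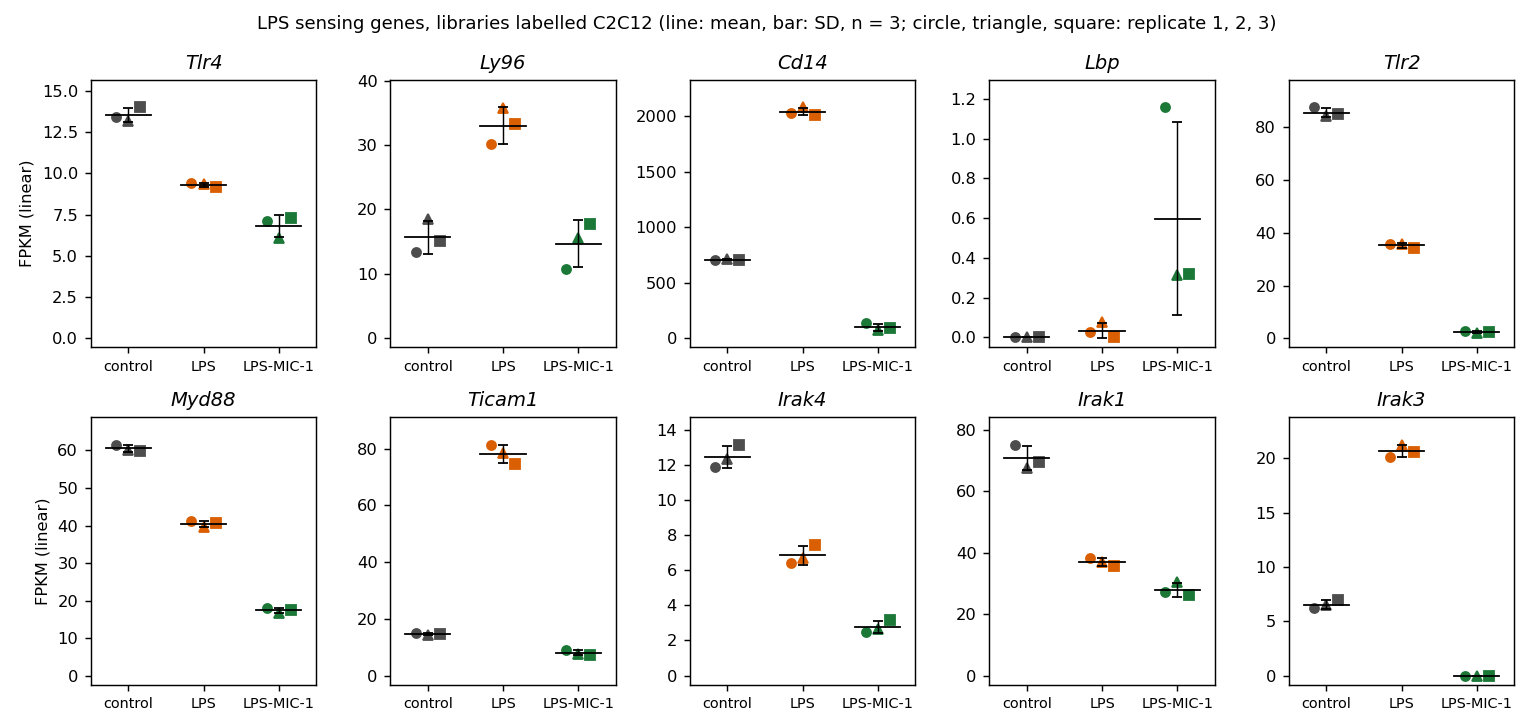
FPKM (linear axis) of the 10 LPS-sensing genes in the libraries labelled C2C12, with 1 point per library, the mean as a line and the SD as a bar (n = 3). Cd14, Ly96, Ticam1 and Irak3 peak in LPS, Tlr4, Tlr2, Myd88, Irak4 and Irak1 step down from control to LPS-MIC-1, and Irak3 is listed at 0 in LPS-MIC-1.

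In LPS-MIC-1 against LPS, 0 members were higher and 6 lower (24.3% and 21.8% of all tested genes), and the groups did not overlap for 1 member with higher and 9 with lower values (43.1% and 42.7% of all). The 6 lower members were Cd14, Tlr2, Myd88, Ticam1, Irak4 and Irak3. Irak3 passed the limit on FPKM through LPS alone, so being tested required it to be higher in LPS. Of the 8 members over the limit in both groups, 5 were lower, a count without its share over all such genes. All 9 tested members had an unadjusted p under 0.05 in limma. The share of all tested genes under that p is not given here, so this count shows nothing particular to the members. Against control, 0 were higher and 6 lower (21.5% and 18.5% of all), namely Cd14, Tlr2, Myd88, Irak4, Irak1 and Irak3. Here Irak3 passed the limit on FPKM through control alone, and 5 of the 8 others tested were lower. The groups did not overlap for 1 member with higher and 8 with lower values (41.7% and 41.8% of all). Without LPS-MIC-1 replicate 1 the counts of lower members were 6 against LPS and 7 against control. Macrophage markers fell and myoblast markers rose with these calls, as given above, and their part in the calls was not tested.

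By level per length, the order in control was Cd14, Tlr2, Irak1, Myd88, Ly96, Ticam1, Tlr4, Irak4, Irak3 and Lbp, and Ly96 and Ticam1 were the only neighbours whose libraries overlapped. In LPS the order was Cd14, Ticam1, Myd88, Irak1, Tlr2, Ly96, Irak3, Tlr4, Irak4 and Lbp, where Irak1 overlapped with Tlr2 and Tlr2 with Ly96. In LPS-MIC-1 it was Cd14, Irak1, Myd88, Ly96, Ticam1, Tlr4, Irak4, Tlr2, Lbp and Irak3, with overlaps between Myd88 and Ly96 and between Irak4 and Tlr2. Cd14 stayed on top throughout, and Tlr2 went from the second place to the eighth.

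Ratios within a library do not depend on the scaling between libraries, but each moves with both of its genes. Cd14 per Tlr4 was 52.1 ± 1.92 (SD, n = 3) in control, 219 ± 3.67 with LPS and 14.5 ± 4.06 with LPS-MIC-1. Ticam1 per Myd88 was 0.242 ± 0.00201, 1.93 ± 0.0797 and 0.463 ± 0.0429. Ly96 per Tlr4 was 1.16 ± 0.212, 3.55 ± 0.321 and 2.17 ± 0.577. In each of these ratios the 3 groups did not overlap, and the highest group was LPS. Ticam1 per Myd88 and Ly96 per Tlr4 were higher in LPS-MIC-1 than in control, unlike Ticam1 and Ly96 themselves. Their log2 fold changes there were -0.86 and -0.11, beside -1.79 for Myd88 and -0.98 for Tlr4.

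**Figure D3:**
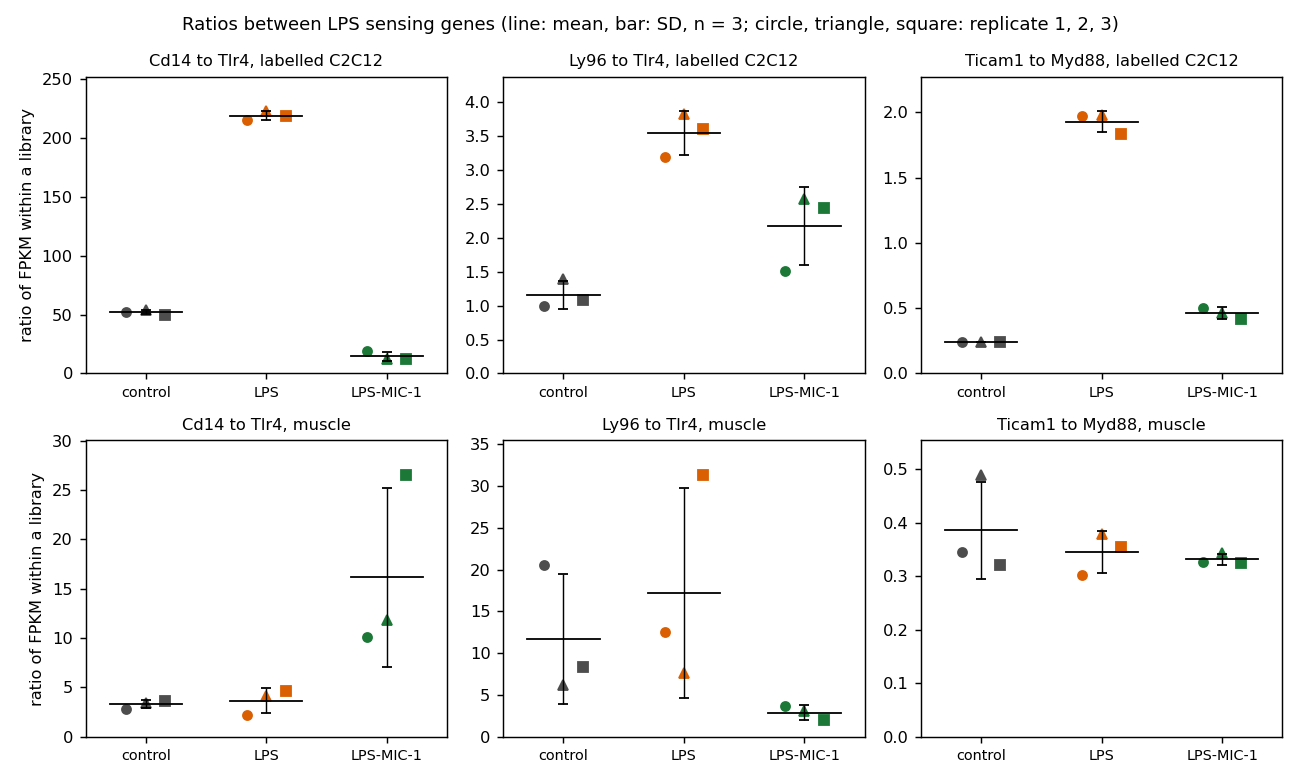
Ratio of FPKM between members within each library (linear axis from 0), for Cd14 to Tlr4, Ly96 to Tlr4 and Ticam1 to Myd88, with the mean as a line and the SD as a bar (n = 3). The top panels show the libraries labelled C2C12, where LPS is highest in all 3 ratios, and the bottom panels show muscle, where Ticam1 to Myd88 lies between 0.303 and 0.490 in all 9 libraries.

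In gastrocnemius muscle, the values of all 10 members overlapped between LPS and control, whereas Cd14, Lbp, Myd88 and Ticam1 were higher in LPS-MIC-1 than in either. Calls in muscle needed a log2 fold change exceeding 1 in size with an adjusted p under 0.05. In LPS against control 5 members were tested and 0 were called (1.20% of all tested genes were called, 0.581% as higher). Of these 5, 0 had an unadjusted p under 0.05 in limma, a count without its share over all genes. The groups did not overlap for 0 of the 10 members (36.9% of all tested genes). In LPS-MIC-1 against LPS, 7 members were tested, 4 were called, all as higher (15.2% of all tested genes were called, 10.2% as higher). The groups of 8 of the 10 members lay apart, all of them with LPS-MIC-1 higher, against 33.2% of all tested genes in that direction. Cd14, Lbp and Irak3 passed the limit of a mean FPKM over 1 only through their LPS-MIC-1 libraries. Being tested therefore required them to be higher there. Ly96, Myd88, Ticam1 and Irak1 were over 1 in both groups, and 2 of these 4 were called. The share over all genes that were over 1 in both groups is not given. Over all genes this comparison was also tilted, with 965 called higher and 473 lower, or 810 and 628 after quantile normalization, which moved the median over all genes by -0.11 on the log2 scale. Against control, 5 members were called, all as higher (15.6% of all were called, 9.77% as higher), and 7 of 10 did not overlap and were higher (33.9% of all). Here Cd14 and Irak3 passed the limit on FPKM through LPS-MIC-1 alone. Of the 5 others tested 3 were called, again a count without its share over all such genes.

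Tlr4 was scarce in muscle, above 41.6% of all genes in control. It had 0.105, 0.171 and 0.192 FPKM in control, 0.202, 0.144 and 0.0858 with LPS and 0.337, 0.317 and 0.583 with LPS-MIC-1. All LPS-MIC-1 libraries were above all others, by 2.86-fold over the mean of LPS, but the mean FPKM was not over 1 and the gene was not tested. With no limit on FPKM, Tlr4 was called higher in LPS-MIC-1 than in LPS (1.06 on the log2 scale, adjusted p = 0.0335). Tlr2 had 0.301, 0.190 and 0.220 FPKM in control, 0.0827, 0.304 and 0.164 with LPS and 0.565, 0.389 and 2.04 with LPS-MIC-1. It too was highest in the LPS-MIC-1 libraries and was not tested.

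Ly96 had 2.15, 1.06 and 1.60 FPKM in control, 2.53, 1.10 and 2.69 with LPS and 1.24, 0.966 and 1.15 with LPS-MIC-1, and the groups overlapped. It was the member with the lowest read support and the 1 tested member without a higher value in LPS-MIC-1 (-0.77 against LPS, 95% confidence interval -1.62 to 0.08, adjusted p = 0.109). Without LPS replicate 2 this became a call of -1.16 (adjusted p = 0.00491). Per unit of Tlr4, Ly96 was 11.7 ± 7.74 (SD, n = 3) in control, 17.2 ± 12.5 with LPS and 2.90 ± 0.863 with LPS-MIC-1.

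Cd14 had 0.296, 0.587 and 0.692 FPKM in control and 0.447, 0.599 and 0.395 in LPS. In LPS-MIC-1 it had 3.39, 3.74 and 15.5 FPKM, every library above all others. The log2 fold change was 3.37 against LPS (SE 0.583, adjusted p = 0.00339) and 3.31 against control (0.621, 0.00482), both called. LPS-MIC-1 replicate 3 held 4.35 times the Cd14, 4.28 times the Tlr2 and 1.78 times the Tlr4 of the other 2 replicates, beside 5.41 times their macrophage list. In it the macrophage enzyme Lyz2 was at 78.3 FPKM against 5.27 and 3.93, while the complement gene C1qa, made by resident macrophages, was at 5.33 against 5.28 and 4.99. Without this library Cd14 was still called, at 2.67 against LPS (adjusted p = 0.000744) and 2.61 against control (adjusted p = 0.0032).

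Lbp, scarce in control and LPS, was several-fold higher in all 3 LPS-MIC-1 libraries. It had 0.879, 1.25 and 1.14 FPKM in control, 0.728, 1.08 and 1.10 with LPS and 6.92, 7.36 and 6.27 with LPS-MIC-1. Its increase was 7.06-fold over LPS (2.72 on the log2 scale, SE 0.172, adjusted p = 4.52e-05) and 6.29-fold over control (2.56, 0.149, 3.25e-05). Since Lbp is an acute-phase protein of the liver, hepatocyte genes were read beside it. The list of 8 summed to 0.756 to 0.944 FPKM in control, 3.06 to 3.88 with LPS and 5.61 to 6.69 with LPS-MIC-1, where Alb was at 2.60 ± 0.285 FPKM (SD, n = 3). The sum in LPS does not stand for the list, as each LPS library had 1 gene over 1 FPKM. LPS-MIC-1 replicates 1, 2 and 3 had 3, 1 and 2 such genes, so their sums rested on few genes as well. Of the 8 genes, 5 were at 0 in all 3 LPS libraries, against 2 in control and 0 in LPS-MIC-1. The part of the hepatocyte genes in the Lbp level was not tested.

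Both adaptors rose together in muscle. Myd88 had 4.43, 2.43 and 3.82 FPKM in control, 2.96, 3.27 and 3.07 with LPS and 7.86, 8.90 and 8.26 with LPS-MIC-1. Ticam1 had 1.53, 1.19 and 1.23 FPKM in control, 0.897, 1.24 and 1.09 with LPS and 2.57, 3.06 and 2.68 with LPS-MIC-1. The LPS-MIC-1 libraries stood apart for both. Against LPS, Myd88 was higher by 1.40 (SE 0.0786, adjusted p = 2.72e-05) and Ticam1 by 1.30 (0.163, 0.00087) on the log2 scale, and against control by 1.25 (0.215, 0.00341) and 1.02 (0.151, 0.00175). With a pseudocount of 1 the Ticam1 changes were 0.86 against LPS and 0.70 against control, and both calls were lost, as was that against control under quantile normalization (0.93). The calls against control are near the fold limit: without control replicate 2 they were at 1.00 and 0.96 and were lost, and Ticam1 also lost it without control replicate 3 (0.98) or LPS-MIC-1 replicate 2 (0.95). Ticam1 per Myd88 was 0.386 ± 0.0911 (SD, n = 3) in control, 0.345 ± 0.0387 with LPS and 0.332 ± 0.0105 with LPS-MIC-1, and these groups overlapped.

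Irak1 was the most abundant member in muscle. It had 13.8, 12.02 and 13.6 FPKM in control, 12.9, 13.2 and 12.1 with LPS and 20.4, 20.3 and 21.4 with LPS-MIC-1. The LPS-MIC-1 libraries lay well above the rest, but the log2 fold changes of 0.69 against LPS (SE 0.0545, adjusted p = 0.000111) and 0.65 against control (0.0679, 0.000382) were under the fold limit. Irak4 had 0.278, 0.969 and 1.01 FPKM in control, 0.618, 0.451 and 0.892 with LPS and 0.603, 0.555 and 0.576 with LPS-MIC-1. Its groups overlapped and it was not tested.

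Irak3 was listed at 0 in control replicates 1 and 2 and in LPS replicate 3, with 0.727 FPKM in control replicate 3 and 0.494 and 0.496 in LPS replicates 1 and 2. In LPS-MIC-1 it had 2.41, 0.661 and 2.53 FPKM. The change against LPS missed the limit (2.38 on the log2 scale, SE 0.876, adjusted p = 0.0588). That against control was called at 3.08 (SE 1.01, adjusted p = 0.0403) although these groups overlapped, and the call was lost without control replicate 1 or 2 (adjusted p = 0.101 and 0.1) and without LPS-MIC-1 replicate 1 or 3, when the gene was no longer tested.

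**Figure D4:**
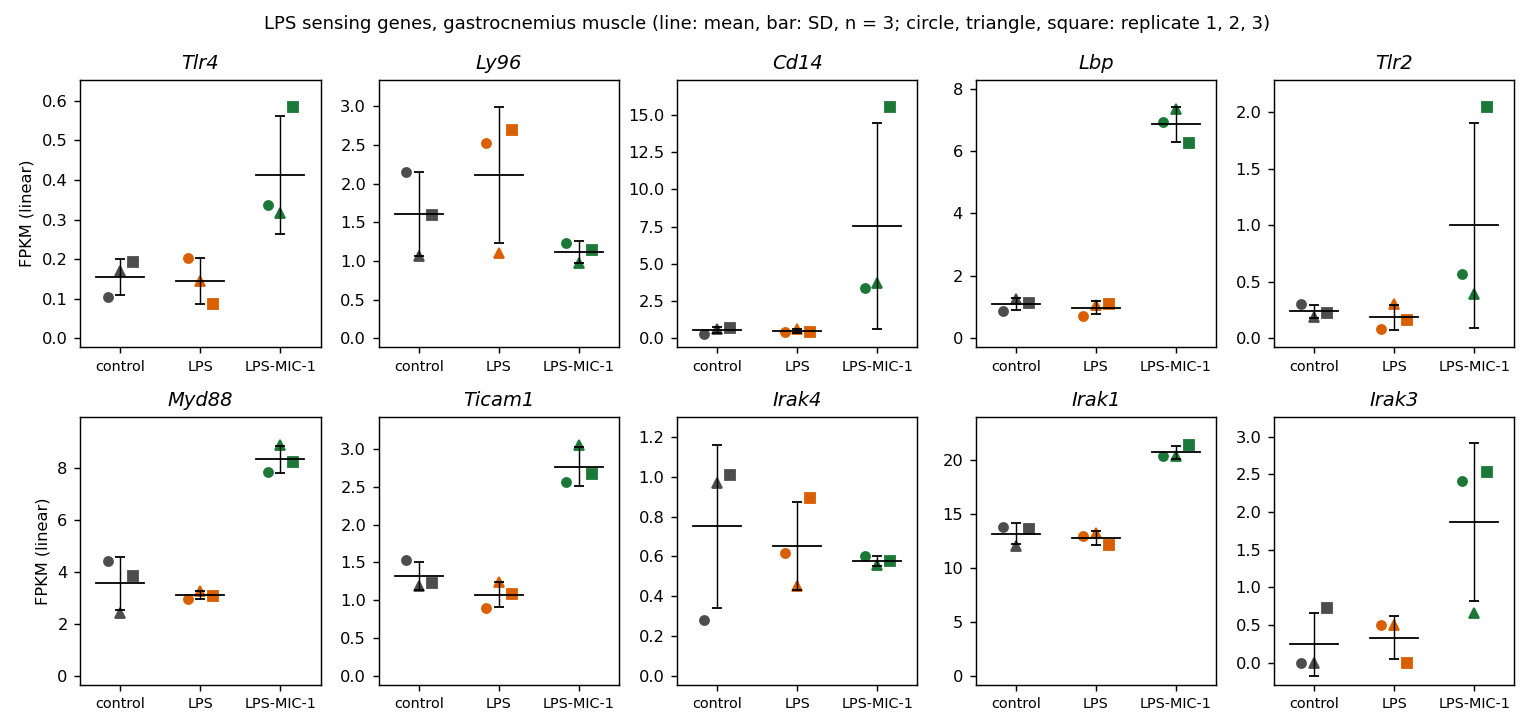
FPKM (linear axis) of the 10 LPS-sensing genes in the gastrocnemius libraries, with 1 point per library, the mean as a line and the SD as a bar (n = 3). Lbp, Myd88, Ticam1 and Irak1 are raised evenly in the 3 LPS-MIC-1 libraries, whereas for Cd14 and Tlr2 replicate 3 (square) stands far above the other 2.

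In muscle, Irak1 and Myd88 led the order of levels in each group. In control and LPS the remaining members followed as Ly96, Ticam1, Lbp, Irak4, Cd14, Irak3, Tlr2 and Tlr4, and each overlapped with its neighbour. In LPS-MIC-1 Cd14 and Lbp came next to Myd88, ahead of Ticam1, and Tlr4 was still the lowest. Neutrophil genes were higher in LPS-MIC-1 as well. Their list of 8 summed to 1.73 to 2.74 FPKM in control and 1.73 to 2.02 with LPS. In LPS-MIC-1 replicates 1, 2 and 3 it summed to 14.3, 19.8 and 18.6 FPKM, without the steep rise of Cd14 and Tlr2 in replicate 3. S100a8 was at 7.38 ± 0.118 FPKM (SD, n = 3) in LPS-MIC-1. The part of neutrophil genes, and of the shifts in fibre, endothelial and adipocyte genes given above, in the rise of Cd14, Lbp, Myd88 and Ticam1 was not tested. Without LPS-MIC-1 replicate 3 the counts of members higher in LPS-MIC-1 were 4 against LPS and 4 against control.

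For LPS-MIC-1 against LPS, several members ran in opposite directions in the experiments. Tlr4, Cd14, Tlr2, Myd88, Ticam1 and Irak1 had lower values in every LPS-MIC-1 library labelled C2C12 and higher values in every LPS-MIC-1 library of muscle, each set against its own LPS group. The difference between the experiments was not tested. Lbp was the 1 member with higher LPS-MIC-1 libraries in both. Ly96 had log2 fold changes of -1.19 in the cells and -0.77 in muscle, where its groups overlapped. Irak4 had -1.28 in the cells and -0.11 in muscle, where its groups overlapped and it was not tested. In the cells this comparison sets libraries with macrophage markers against libraries with myoblast markers, so cell type and treatment cannot be told apart. The 2 comparisons with LPS-MIC-1 in an experiment share those libraries, and the 2 comparisons with LPS share the LPS libraries, so their results are not independent.

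**Figure D5:**
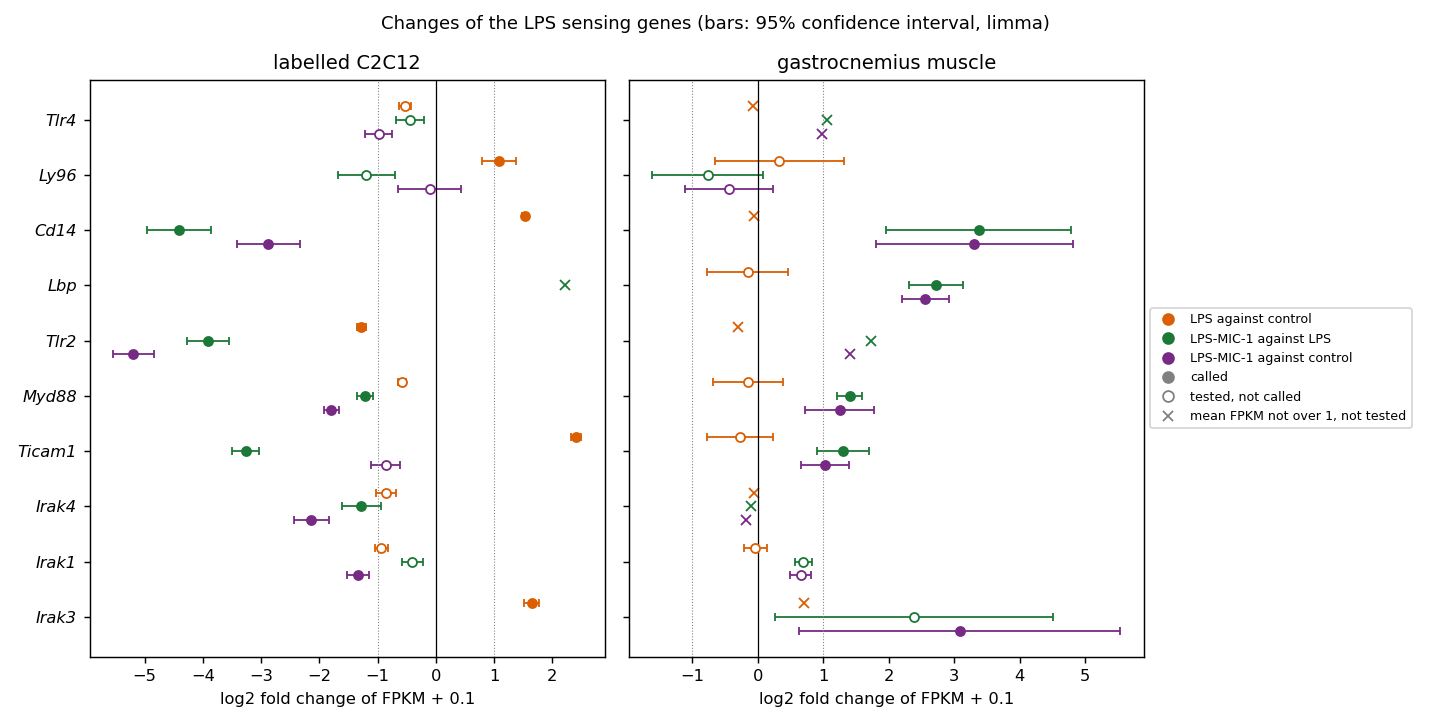
Log2 fold change of FPKM + 0.1 for each member in 3 comparisons, with 95% confidence intervals from limma, in the libraries labelled C2C12 (left) and in muscle (right). Filled points were called, open points were tested and not called, crosses were not tested, and comparisons with a group listed at 0 (Irak3 and Lbp, left) are left out. The filled points of LPS-MIC-1 against LPS lie left of 0 in the cells and right of 0 in muscle.

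The rest of the pathway was described with 58 further genes grouped by role. In the libraries labelled C2C12, 45 of them were tested between LPS and control, with 17 higher and 5 lower (13.4% and 12.7% of all). Their median log2 fold change was 0.68, and -0.02 over all tested genes. Aoah and Il6 passed the limit on FPKM through LPS alone, so being tested required them to be higher there. Among the 43 over the limit in both groups, 15 were higher and 5 lower, counts without their share over all such genes. All 9 tested target genes of the pathway were higher, among them the chemokine Ccl5, which rose from 6.89 ± 2.20 to 7139 ± 60.4 FPKM (mean ± SD, n = 3), and the cytokine Il6, listed at 0 in control and at 56.8 ± 3.63 FPKM in LPS. Of 15 tested kinases and ligases, 4 were higher and 0 lower. Irak2, a relative of Irak1 that sustains the signal, rose from 16.8 ± 0.899 to 121 ± 0.602 FPKM (log2 fold change 2.84, adjusted p = 8.02e-09), and the ligase Peli1 from 7.07 ± 0.187 to 22.9 ± 0.743 FPKM. The inhibitors Tnfaip3 (A20) and Tollip rose by 3.29 and 1.25. Both tested genes of LPS handling rose, Aoah, which strips fatty acids from LPS, by 2.74, and Casp4, the sensor of LPS inside cells, by 2.48. Among the other Toll-like receptors, Tlr7 and Tlr13 fell by 1.26 and 1.19, and the receptor chaperone Cnpy3 by 1.30, while Ly86, the partner of Cd180, went from 276 ± 13.0 to 63.0 ± 2.47 FPKM (mean ± SD, n = 3, log2 fold change -2.13).

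In LPS-MIC-1 against LPS, 47 of these genes were tested in the C2C12 libraries, with 5 higher and 23 lower (24.3% and 21.8% of all). Of the 47, 12 passed the limit on FPKM through LPS alone, 9 of them called lower, and 3 through LPS-MIC-1 alone, all called higher, while 2 of the 32 over the limit in both groups were higher and 14 lower. The lower genes included Tlr7, from 12.3 ± 0.549 to 0.151 ± 0.221 FPKM (mean ± SD, n = 3), Tlr13, Unc93b1, which carries Toll-like receptors to endosomes, from 225 ± 2.45 to 4.53 ± 3.54 FPKM, and Ticam2, the adaptor that joins Ticam1 to Tlr4, from 13.6 ± 0.384 to 0.195 ± 0.263 FPKM. Cd180, a relative of Tlr4, was at 32.4 ± 0.27 FPKM in LPS and listed at 0 in LPS-MIC-1. The kinase Map3k8 and the cytokine Tnf fell by 5.68 and 7.12 (log2, adjusted p of 0.000142 and 0.000578), and Tollip and Tnfaip3 by 2.33 and 2.28, while Aoah had a log2 fold change of -3.45. In the other direction, the chemokine Cxcl1 rose from 0.436 ± 0.622 to 491 ± 86.4 FPKM, the ligase Peli2 from 0.0589 ± 0.0298 to 5.62 ± 0.337, and Casp4 from 36.7 ± 1.93 to 77.1 ± 4.37. Without any 1 of the LPS libraries the count of lower genes was 15, and without LPS-MIC-1 replicate 1 it was 28. Against control, 6 of 47 were higher and 15 lower (21.5% and 18.5% of all tested genes). Here 4 passed the limit on FPKM through LPS-MIC-1 alone, 3 of them called higher. Another 12 passed through control alone, 9 of them called lower. Of the 31 over the limit in both groups, 3 were higher and 6 lower. For genes over the limit in both groups, here and against LPS, the share over all such genes is not given. The higher genes of the 47 included Socs1 and Casp4. They also included Cxcl1 and Il6, which passed through LPS-MIC-1 alone, and control lists Il6 at 0. The lower genes included Ly86 and Rnf216, and Ticam2, which passed through control alone.

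In muscle, 23 of the 58 genes were tested between LPS and control, and 0 were higher and 1 lower. Of all tested genes 1.20% were called, 0.581% as higher. The 1 lower gene was Socs1, an inhibitor of cytokine signalling, at 48.8 ± 1.08 FPKM in control and 0.866 ± 0.478 in LPS (mean ± SD, n = 3, adjusted p = 0.000329). Only 1 of the 11 target genes reached a mean FPKM over 1 there. In LPS-MIC-1 against LPS, 12 of 32 tested genes were higher and 1 lower (15.2% of all were called, 10.2% as higher). Against control, 11 of 30 were higher and 1 lower (15.6% of all were called, 9.77% as higher). Through LPS-MIC-1 alone 11 and 10 of these genes passed the limit on FPKM, and with them 8 and 7 of the higher calls. Among the genes over the limit in both groups, 4 of 21 were higher and 1 lower against LPS, and 4 of 20 and 1 against control. The shares over all genes of that kind are not given. All 5 tested target genes were higher in both comparisons, but Cxcl1, Cxcl2, Ccl5 and Cxcl10 were tested only because of their LPS-MIC-1 level. The same held for Casp4, for Map3k8 and Socs1 against LPS, and for Tnfaip3 against control. Nfkbia, the NF-κB inhibitor, was over the limit in every group, at 21.0 ± 1.87 FPKM in control, 23.3 ± 0.369 with LPS and 111.9 ± 4.61 with LPS-MIC-1 (mean ± SD, n = 3). In LPS-MIC-1, Ccl5 was at 20.8 ± 1.87 FPKM and Cxcl1 at 12.8 ± 1.18 against 0.322 ± 0.296 and 0.128 ± 0.0564 in LPS. Cxcl2, listed at 0 in control, was at 4.14 ± 0.708. Of the kinases, Irak2 rose from 2.33 ± 0.0427 in LPS to 7.44 ± 0.337 FPKM, Map3k8 by 2.05 (log2, adjusted p = 0.00271), and Tbk1, the kinase below Ticam1, by 1.55 against control (adjusted p = 2.29e-05). Tollip rose by 1.07 and Socs1 by 2.24 over LPS, although Socs1 was still 3.55 below control, and Tnfaip3 rose by 1.73 over control. Casp4 rose by 2.81 over LPS and 2.19 over control. The lower gene was Tirap, the adaptor that bridges Tlr4 and Myd88, from 9.30 ± 0.609 in LPS to 4.08 ± 0.252 FPKM (-1.17, adjusted p = 6.15e-05), so that Tirap fell while Myd88 rose.

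For 3 members the genes with the most similar pattern were sought by Pearson's r of log2(FPKM + 0.1) over the 9 libraries of an experiment. The points are 3 groups of 3, so r mainly reflects the group means. In the libraries labelled C2C12, Tlr4 was most like Ppp2r4 and H1f0 (r = 0.996 for both), Cd14 like Rgl1 and Plek (r = 1.00 and 0.999) and Myd88 like Scarb1 and Prkag2 (r = 0.999 for both). In muscle, Tlr4 was most like Pgs1 and Cttnbp2nl (r = 0.976 and 0.971), Cd14 like Il2rg and Mpeg1 (r = 0.982 and 0.979) and Myd88 like Ccdc55 and Camta1 (r = 0.989 and 0.982). Mpeg1, a gene of the macrophage list, was at a mean of 0.224 FPKM in control, 0.338 with LPS and 2.97 with LPS-MIC-1. The whole list did not follow it: LPS-MIC-1 replicates 1 and 2 were at 29.5 and 29.6 FPKM, below the 38.7 to 40.2 of LPS. Only replicate 3 was above, at 159.9 FPKM.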

How the data were processed

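RNA-seq libraries of cells labelled C2C12 (9) and of gastrocnemius muscle (9) were grouped by the sample titles. Reads had been pseudoaligned with kallisto and summarised with tximport by the authors, who deposited FPKM per gene and library; the build is mm9 per the submitters' processing notes. The muscle values came with 11 columns without a name, 9 of them with values, which were not used. The authors' 6 DESeq2 tables hold fold changes and p-values, which were not used. Only their deposited base means (a signal, the mean of counts scaled by size factors in a comparison) served to judge depth, from 5 tables, because the base means of muscle control against LPS came from a table with other rows. The labels give 10 μM MIC-1 for the sequenced cells and the paper's results give 1 μM.

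Since FPKM are not counts, each pair of groups (6 libraries) was compared with limma 3.58.1 in R 4.3.3 (eBayes with trend) on log2(FPKM + 0.1), in genes with a mean FPKM over 1, with Benjamini-Hochberg adjustment over all genes tested. Genes were called where the log2 fold change exceeded 1 in size, at an adjusted p below 0.001 in cells or 0.05 in muscle, limits taken from the paper, which words the muscle limit both as P and as adjusted P. A gene's groups overlapped unless all libraries of one were above all of the other. Exact permutation tests are 2-sided. Members, pathway and marker lists were chosen with earlier results of these data known. Named genes are the members, the 2 largest changes called per pathway list and comparison, the 2 most abundant markers per list and the 2 genes most like Tlr4, Cd14 and Myd88. Lyz2 and C1qa per replicate, and Myf5, Pax7, Msc, C1qc, Aif1, Mpeg1, Cxcl10 and Nfkbia, were named after their values were seen. Alternatives were other pseudocounts, FPKM limits, scalings, thresholds and fits, a replicate block and leaving out each library. The steps were tested on simulated data. Deviations from the group means had r from -0.0757 to 0.0823 between same-numbered libraries and from -0.0910 to 0.121 between others. With 3 libraries per group this cannot exclude a pairing, and the labels do not state one. Python 3.11.15, scipy 1.17.1 and matplotlib 3.10.9 were used for exact tests and figures. No sequence was used here.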

Additional observations from a re-analysis of the deposited data

Results flagged for a closer look

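The following genes had every LPS-MIC-1 library of one experiment below, and every LPS-MIC-1 library of the other above, the group it was compared with. The difference between the experiments was not tested. For LPS-MIC-1 against LPS, the log2 fold changes in the libraries labelled C2C12 and in muscle were -0.45 and 1.06 for Tlr4, -4.41 and 3.37 for Cd14, -3.91 and 1.72 for Tlr2, -1.21 and 1.40 for Myd88, -3.27 and 1.30 for Ticam1, and -0.41 and 0.69 for Irak1. For LPS-MIC-1 against control, they were -0.98 and 0.98 for Tlr4, -2.87 and 3.31 for Cd14, -5.19 and 1.41 for Tlr2, -1.79 and 1.25 for Myd88, -0.86 and 1.02 for Ticam1, and -1.34 and 0.65 for Irak1. Irak3 was listed at 0 FPKM in the 3 C2C12 LPS-MIC-1 libraries, below all LPS libraries, and had a log2 fold change of 2.38 in LPS-MIC-1 against LPS in muscle. The muscle values of Tlr4 and Tlr2 come from genes whose mean FPKM was not over 1 and which were not tested.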

How the results depend on the processing

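Of the log2 fold changes of the members, 658 of those under other settings kept their direction and their side of the limits, 15 newly passed them, 16 no longer did and 1 moved to the other sign. With 1 library left out the numbers were 328, 4, 13 and 15. No called change turned its direction. In the libraries labelled C2C12, the count of members lower in LPS than in control was 1, and became 2 under quantile normalization and 5 with no limit on the fold change. In muscle, the counts of 4 and 5 members higher in LPS-MIC-1 than in LPS and in control became 1 each when the limit on the mean was raised to 5 FPKM, since fewer members then remained. Leaving out each library gave 3 to 4 higher and 1 to 1 lower members for C2C12 LPS against control, 0 to 0 and 5 to 6 for LPS-MIC-1 against LPS and 0 to 0 and 6 to 7 against control. In muscle it gave 0 to 0 both ways for LPS against control, 4 to 5 higher and 0 to 1 lower for LPS-MIC-1 against LPS (1 without LPS replicate 2) and 2 to 4 higher and 0 to 0 lower against control (2 without control replicate 2).

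With the replicate number as a block, Irak4 lost its call in C2C12 LPS-MIC-1 against LPS (adjusted p = 0.00129), so that 5 members were lower. No other member's call changed, and the labels do not say that the number pairs libraries. The block took the number of all genes lower in C2C12 LPS-MIC-1 than in control from 2023 to 1344. The same count was 1326 to 1339 without 1 control library.

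Over all genes, muscle LPS against control had 54 higher and 58 lower, which became 82 and 90 with no FPKM limit, 26 and 23 over 5 FPKM, 733 and 684 with no fold limit, and 36 lower with a pseudocount of 1. For LPS-MIC-1 against LPS, 965 and 473 became 514 and 178 over 5 FPKM and 2723 and 2494 with no fold limit, with 781 lower without the FPKM limit and 273 with a pseudocount of 1. Against control, 930 and 554 became 531 and 200, and 2793 and 2490, with 900 and 336 lower. C2C12 LPS against control went from 1335 and 1264 to 3050 and 3106 with no fold limit. Of the 58 pathway genes, 17 higher and 5 lower in C2C12 LPS against control became 11 and 2 when all 9 libraries shared a fit, and 12 and 11 higher in muscle LPS-MIC-1 became 6 and 6 over 5 FPKM, in alternatives chosen after seeing the data.

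Depth per library is unknown, so no counting interval was given for single values, and values under 1 FPKM rest on few reads for short transcripts such as Ly96. In the libraries labelled C2C12, cell type cannot be told apart from treatment with LPS-MIC-1. A planned motif search in promoters was not run.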
